A study of Xenopus tropicalis with 44 samples.

Results

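The aminoacyl-tRNA synthetases were followed in messenger RNA libraries of whole Xenopus tropicalis embryos. A gene was a member when its name in the count table was a single-letter amino acid code followed by "ars", with or without the number 1, 2 or 3, or when it was farsa or farsb. This gave 37 of the 28778 genes in the table. Of these, 20 were classed as genes of cytosolic enzymes and 17, those with the number 2, as genes of mitochondrial enzymes, by name alone. All 37 passed the filter on low counts, among 16064 genes tested. The name rule misses eprs1, the fused glutamyl-prolyl enzyme of the cytosol, whose values are given with the partner genes near the end.

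The embryos form 22 groups of 2 libraries each, 44 in all. Embryos injected with the E2F1 morpholino alone (E2F1 MO) were taken at stages 3 to 8. E2F1 rescue embryos, which received that morpholino together with E2F1 mRNA, were taken at stages 6 to 8. Embryos with the OTX1 morpholino (OTX1 MO) or both morpholinos (double MO) were taken at stages 7 and 8. Wild-type (WT) embryos with no treatment were taken at stages 3 to 10 and at stage 13. Stages 3, 4 and 5 are the 4-, 8- and 16-cell embryo. A morpholino is an antisense oligomer that hinders translation or splicing, and the RNA level of e2f1 or otx1 therefore gives no measure of the knockdown. E2f1 is a cell cycle transcription factor and Otx1 a homeodomain transcription factor. No group received a control morpholino, and the clutch behind each library is not stated. The p-values thus rest on the spread between libraries, which may be technical only.

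Each synthetase joins one amino acid to its transfer RNAs, and the charged transfer RNA is what the ribosome uses. The cytosolic and mitochondrial enzymes are products of separate nuclear genes for most amino acids, while in human cells lysyl (KARS1) and glycyl (GARS1) enzymes serve both compartments from a single gene. Phenylalanyl-tRNA synthetase of the cytosol is built from an alpha subunit (farsa) and a beta subunit (farsb). Several cytosolic enzymes, among them those of iars1, kars1, lars1, mars1, qars1 and rars1, sit in the multisynthetase complex with the scaffold proteins of aimp1, aimp2 and eef1e1. The frog egg is laid with stored maternal RNA and ribosomes, and its own transcription starts on a large scale only in the blastula.

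Libraries held 9266513 to 37174326 counts (median 20541736). Levels are CPM, the usual depth-scaled counts, with TMM factors, and 3 counts equal 0.0807 to 0.324 CPM, depending on the library. Levels are compared between genes only after division by gene length (CPM per kb). All libraries entered a single edgeR quasi-likelihood fit, and a gene was called at a Benjamini-Hochberg adjusted p under 0.05 over all genes tested. A value in parentheses after a gene is its log2 change in that fit unless a unit is given, and ± after a log2 change is a standard error. It was derived from the test, as the absolute log2 change divided by the square root of the F statistic. "Rose" and "fell" are used of called genes. The spread between replicates was a biological coefficient of variation of 6.11%. By chi-square per gene, the replicates of 3 groups differed more than the others. It was 27.6 in rescue embryos of stage 8, 12 in WT of stage 10 and 11.8 in double MO embryos of stage 7. In the other groups it was 1.38 to 4.75. The correlation of log2 levels between replicates was lowest in WT of stage 10 (0.983) and was 0.992 in rescue embryos of stage 8. Without either library of WT stage 10 in turn, 23 and 26 members were called between stages 10 and 9, against 28 with both, and without either double MO library of stage 7, 24 and 20 were called in double MO embryos relative to WT, against 25 with both. Stage markers were set beside the WT labels. The summed level of 7 zygotic genes was 0.449 to 0.538 CPM at WT stage 3 and 1748 to 1965 CPM at stage 10. At WT stages 3 to 7 it was at most 0.678 CPM and does not tell these stages apart. A sum of 7 maternal and germ plasm genes was 2073 to 2114 CPM at WT stage 3 and 352 to 398 CPM at stage 10. A sum of 5 neurula genes was highest at WT stage 13 (2632 to 2649 CPM). It did not follow stage order before, with 181 to 186 CPM at stage 7 and 91.4 to 96.1 CPM at stage 8. The 2 detected markers of adult blood, liver or ovary summed to at most 1.54 CPM. In E2F1 MO embryos of stages 3 to 6 and rescue embryos of stages 6 and 7 the zygotic sum was at most 0.661 CPM. Other injected groups departed from WT of their stage. The zygotic sum was 1.02 to 1.22 CPM in double MO, 1.14 to 1.91 CPM in OTX1 MO and 20.2 to 21.3 CPM in E2F1 MO embryos of stage 7. In WT of stage 7 it was 0.146 to 0.381 CPM. At stage 8 it was 4.95 to 6.04 CPM in double MO, 7.99 to 10.4 CPM in OTX1 MO, 2.04 to 2.38 CPM in rescue and 24.1 to 25 CPM in E2F1 MO embryos, against 31.9 to 35.2 CPM in WT. The part of this difference in the synthetase results of stages 7 and 8 was not tested. The e2f1 transcript itself lay between 404 and 646 CPM in E2F1 MO embryos of stages 3 to 8, against 467 to 655 CPM in WT of those stages.

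In the 4-cell WT embryo a few synthetase genes were far above the rest. The lysyl enzyme gene kars1 stood first at 176 ± 1.86 CPM per kb (SD, n = 2), followed by the mitochondrial prolyl enzyme pars2 at 76.8 ± 3.03 CPM per kb. The seryl enzyme sars1 (41.4 ± 0.780), the tyrosyl enzyme yars1 (33.8 ± 0.799) and the mitochondrial tryptophanyl enzyme wars2 (28.6 ± 1.75) came next. By sum over each class, kars1 held 45.4 ± 0.230% of the cytosolic RNA per kb and pars2 held 53.5 ± 0.0186% of the mitochondrial RNA per kb at stage 3.

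Other cytosolic members were spread widely at stage 3. The glutaminyl (qars1), isoleucyl (iars1), phenylalanyl beta (farsb), valyl (vars1), threonyl (tars1) and glycyl (gars1) genes lay between 11.2 ± 1.33 and 23.4 ± 1.13 CPM per kb. The leucyl (lars1), alanyl (aars1), methionyl (mars1), phenylalanyl alpha (farsa), tryptophanyl (wars1), asparaginyl (nars1) and second threonyl (tars3) genes lay between 2.78 ± 0.0636 and 9.49 ± 0.705 CPM per kb. Lowest were cysteinyl cars1 (1.87 ± 0.252), histidyl hars (0.739 ± 0.0135) and arginyl rars1 (0.698 ± 0.0284).

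Apart from pars2 and wars2, mitochondrial members were low. The leucyl gene lars2 stood at 7.85 ± 0.517, the histidyl gene hars2 at 4.08 ± 0.232 and the phenylalanyl gene fars2 at 3.89 ± 0.630 CPM per kb at WT stage 3. The genes yars2, sars2, iars2, mars2, aars2, ears2, vars2, cars2, rars2 and tars2 ran down from 3.24 ± 0.0419 to 0.621 ± 0.195 CPM per kb, and the asparaginyl gene nars2 was last at 0.551 ± 0.113. The gene named hars2 exceeded the gene named hars at every WT stage, with 30.7 ± 0.936 CPM per kb against 0.206 ± 0.0579 CPM per kb at stage 13. Class was read from the number in the name, and whether hars2 serves the mitochondrion in this frog was not tested.

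From stage 3 to stage 9 the family's RNA changed in both directions while embryos cleaved to the late blastula. Between these stages 23 members were higher and 7 lower at stage 9 than at stage 3, and of all genes tested 71.2% were called, 39.7% higher and 31.5% lower. Among the cytosolic genes 13 of 20 were higher and 4 lower, and among the mitochondrial genes 10 of 17 and 3. In whole embryos, a change in the number of cells with a transcript and a change in RNA per cell cannot be told apart. Newly made and stored maternal transcripts cannot be told apart either. Whether stored RNA entered the mRNA libraries equally at each stage was not tested. The median log2 change was 1.18 for cytosolic members, 0.49 for mitochondrial members and 0.22 for all genes. Scaling by total counts alone lifts the median of all genes to 0.78 and gives 29 members higher and 4 lower.

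The arginyl gene rars1, a member of the multisynthetase complex, had 10.2 and 9.01 CPM at stage 9, against 1.41 and 1.5 CPM at stage 3. The asparaginyl gene nars1 had 68.6 and 63.0 CPM, against 11.5 and 10.8 CPM. Both libraries of stage 9 lay far above both of stage 3 for these genes. The log2 change was 2.72 ± 0.21 (adjusted p = 1.7e-15) for rars1, and for nars1 it was 2.56 ± 0.092 (adjusted p = 1.1e-26). The cysteinyl gene cars1 (2.33), hars2 (1.96) and phenylalanyl alpha farsa (1.59) rose as well.

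Of the 5 genes that led at stage 3, all but sars1 fell. Prolyl pars2 had 42.5 and 43.9 CPM at stage 9, against 150.3 and 142 CPM at stage 3, a log2 change of -1.76 ± 0.095 (adjusted p = 3.2e-20). Lysyl kars1 had 169.9 and 165 CPM, against 371 and 366 CPM, a change of -1.14 ± 0.066 (adjusted p = 2.1e-19). The tyrosyl gene yars1 (-1.32) and the mitochondrial tryptophanyl gene wars2 (-1.23) fell as well, and 27 of the 30 calls between stages 9 and 3 were kept without each of the 4 libraries in turn. The call for wars1 (-0.58) rested on the scaling, with a log2 change of -0.01 on total counts alone.

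**Figure D1:**
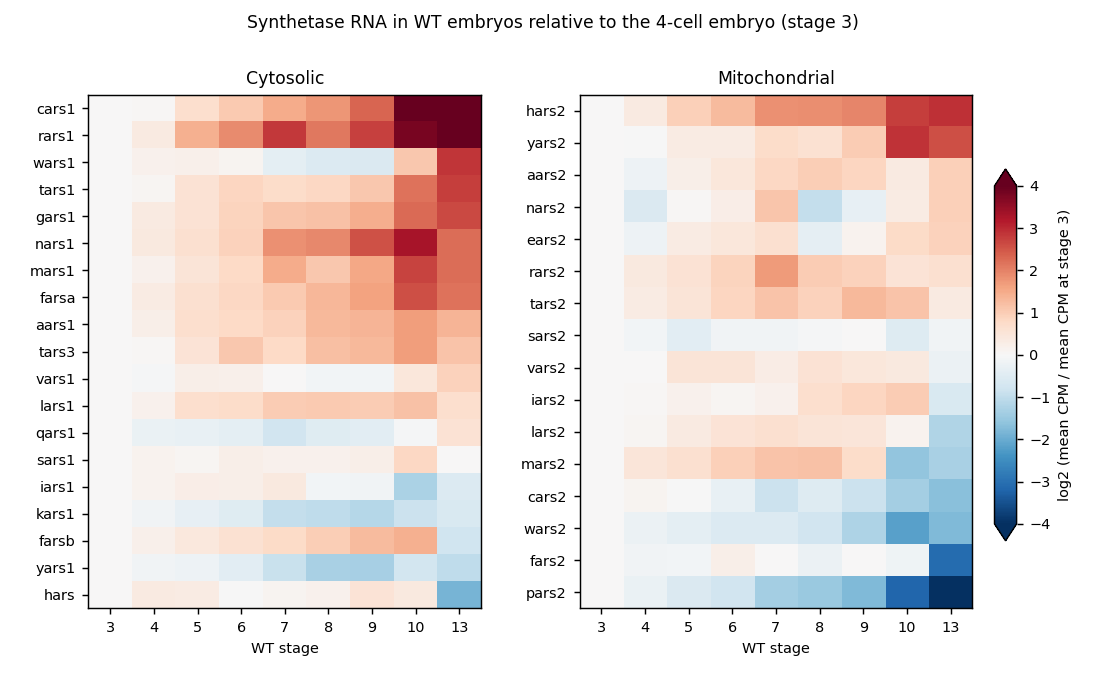
Mean level of members at the 9 WT stages (x axis), as log2 of its ratio to WT stage 3, in colour (red higher, blue lower, scale from -4 to 4, n = 2 libraries a stage), with cytosolic genes on the left and mitochondrial genes on the right. Most cytosolic rows turn red with stage, and pars2 and fars2 are the bluest rows at stage 13.

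Stages 4 and 6 differed little from the stages before them. Between stages 4 and 3, 5 members were higher and 1 lower (all genes: 8.81% called, 3.94% higher and 4.87% lower), and between stages 6 and 5, 7 were higher and 0 lower (all genes: 11.2% called, 5.99% higher and 5.19% lower). Neither count was stable. The stage 4 count of 6 fell to 2 and 1 without WT stage 3 replicates 1 and 2, and to 1 and 0 without WT stage 4 replicates 1 and 2. The stage 6 count of 7 fell to 1 and 3 without WT stage 5 replicates 1 and 2, and to 2 and 3 without WT stage 6 replicates 1 and 2. Total counts alone gave 10 and 13 members higher and 0 lower in these comparisons, and at stage 6 RLE factors gave 4 higher and 2 lower and DESeq2 7 and 2.

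Between stages 5 and 4, 15 members were higher and 2 lower, with 12 of the rises among the 20 cytosolic genes (all genes: 27.3% called, 13.1% higher and 14.2% lower). The total of 17 became 11 and 9 without WT stage 5 replicates 1 and 2, and total counts alone gave 18 higher and 0 lower. The rises kept in every leave-out were those of rars1 (1.05), hars2 (0.61), tars1 (0.50), lars1 (0.50) and aars1 (0.44).

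At stage 7, 11 members were higher and 6 lower than at stage 6 (all genes: 46.9% called, 24.1% higher and 22.8% lower; 19 and 5 members with total counts alone, 9 and 8 with DESeq2). Arginyl rars1 had 9.89 and 10.7 CPM at stage 7, against 4.38 and 6.36 CPM at stage 6, a log2 change of 0.93 ± 0.15 (adjusted p = 1.3e-06). Asparaginyl nars1 (0.90) and methionyl mars1 (0.68) rose with it, while pars2 (-0.60), wars1 (-0.51), yars1 (-0.48) and kars1 (-0.47) fell.

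Some of these rises turned at stage 8, when 8 members were higher and 7 lower than at stage 7 (all genes: 44.1% called, 21.1% higher and 23.1% lower). Arginyl rars1 had 7.00 and 5.51 CPM at stage 8, against 9.89 and 10.7 CPM at stage 7 (-0.71 ± 0.15, adjusted p = 0.00012), and the mitochondrial asparaginyl gene nars2 had 0.674 and 0.484 CPM, against 2.40 and 2.45 CPM (-2.04 ± 0.40, adjusted p = 4.9e-05). Methionyl mars1 (-0.39) and isoleucyl iars1 (-0.50) fell too, while iars2 rose by 0.48 and tars3 by 0.41. Of these genes nars2 had low counts, 7 to 86 in a library over all groups.

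At stage 9, 9 members, all cytosolic, were higher and 3, all mitochondrial, lower than at stage 8 (all genes: 24.5% called, 13.1% higher and 11.4% lower). Without WT stage 9 replicate 1 the 12 calls became 7. The rises of nars1 (0.64), cars1 (0.56) and mars1 (0.46) and the fall of wars2 (-0.47) were kept in every leave-out.

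The cytosolic and mitochondrial genes, which already differed in direction at stage 9, parted further at stage 10, the start of gastrulation. At stage 10, 18 of the 20 cytosolic genes were higher and 1 lower than at stage 9, while 3 of the 17 mitochondrial genes were higher and 6 lower. Of all genes tested 63.2% were called, 32.7% higher and 30.6% lower. The median log2 change was 0.58 for cytosolic members, -0.20 for mitochondrial members and 0.04 for all genes. Total counts alone moves the median of all genes to -0.15 and gives 14 members higher and 9 lower, and 21 of the 28 calls were kept without each library in turn.

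The cysteinyl gene cars1 changed most, with 170.4 and 155 CPM at stage 10, against 23.7 and 22.7 CPM at stage 9, a log2 change of 2.81 ± 0.098 (adjusted p = 4.2e-27). Tryptophanyl wars1 had 32.0 and 26 CPM, against 9.46 and 8.96 CPM (1.67 ± 0.12, adjusted p = 3.5e-16). Its level had stayed between 8.71 and 16.2 CPM in all 14 WT libraries of stages 3 to 9, and no earlier step was called higher for it. Methionyl mars1 (1.17), threonyl tars1 (1.10) and arginyl rars1 (1.09) also rose.

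Isoleucyl iars1 was the cytosolic gene that fell, with 32.4 and 34.2 CPM at stage 10, against 70.0 and 74.5 CPM at stage 9 (-1.12 ± 0.084, adjusted p = 1.1e-15). Among mitochondrial genes, methionyl mars2 had 2.64 and 1.76 CPM, against 9.71 and 12.5 CPM (-2.29 ± 0.19, adjusted p = 5.6e-14), and pars2 had 18.4 and 14.2 CPM, against 42.5 and 43.9 CPM (-1.38 ± 0.12, adjusted p = 9.6e-14). The fall of wars2 was -0.93 ± 0.13 (adjusted p = 4.3e-08). The tyrosyl gene yars2 rose, to 34.3 and 36.9 CPM at stage 10, against 9.39 and 9.92 CPM at stage 9 (1.88 ± 0.17, adjusted p = 3.8e-13). In RefSeq the gene yars2 overlaps cdpf1, cars2 overlaps naxd and pars2 overlaps ttc4, and the strand setting of the counting is not given, so reads may be shared between these neighbours. At stage 10, against stage 9, cdpf1 had 8.90 and 9.66 CPM, against 1.71 and 1.67 CPM (2.45), in the same direction as yars2, and ttc4 had 9.83 and 8.79 CPM, against 4.63 and 4.05 CPM (1.11), opposite to pars2.

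**Figure D2:**
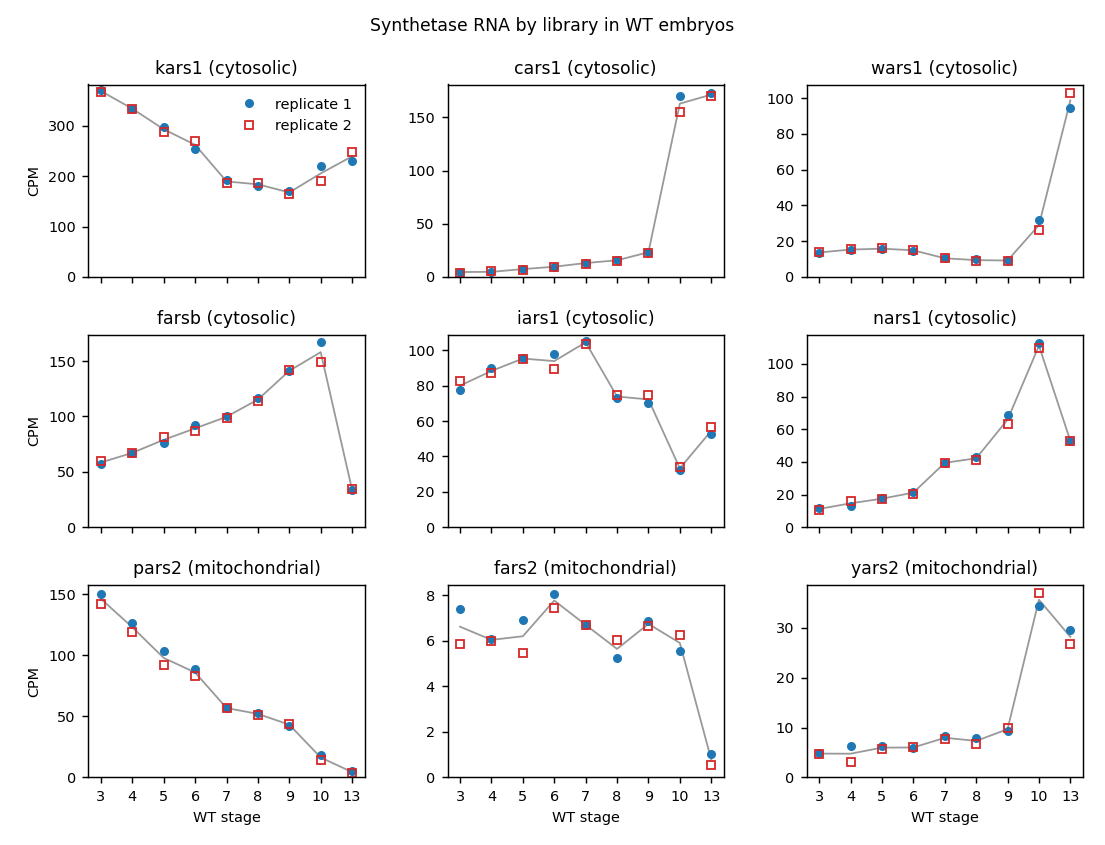
Level in CPM (y axis, from 0) of 9 members at the WT stages (x axis), with 1 point for each library and a line through the means of the 2 libraries. The 2 replicates lie close together, cars1 and yars2 step up at stage 10, wars1 has its highest values at stage 13, and farsb and fars2 drop between stages 10 and 13.

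At stage 13, the early neurula, 10 members were higher and 17 lower than at stage 10, and of all genes 76.9% were called, 40.6% higher and 36.3% lower. This split depends on the scaling: total counts alone gave 6 members higher and 19 lower (median of all genes -0.18, against 0.08 with TMM factors), RLE factors gave 14 and 15, and DESeq2 gave 14 and 14. Cytosolic members divided into 8 higher and 10 lower, mitochondrial members into 2 and 7. Tryptophanyl wars1 had 94.5 and 103 CPM at stage 13, against 32.0 and 26 CPM at stage 10 (1.76 ± 0.10, adjusted p = 4.4e-19), its largest step. The rises of rars1 (0.85), iars1 (0.72), qars1 (0.61) and tars1 (0.60) were smaller.

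The largest falls at stage 13 were those of fars2, farsb, hars and pars2. Mitochondrial fars2 had 1.04 and 0.543 CPM at stage 13, against 5.56 and 6.26 CPM at stage 10 (-2.94 ± 0.29, adjusted p = 2.6e-12). Prolyl pars2 had 4.87 and 3.8 CPM, against 18.4 and 14.2 CPM (-1.96 ± 0.18, adjusted p = 5.4e-13), and the falls of isoleucyl iars2 and leucyl lars2 were -1.66 and -1.34. Histidyl hars had 3 and 6 counts in the stage 13 libraries and a log2 change of -2.15 ± 0.52 (adjusted p = 0.00032).

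The alpha and beta subunits of the cytosolic phenylalanyl enzyme exchanged their order. The beta gene farsb had 33.2 and 34.4 CPM at stage 13, against 167 and 149 CPM at stage 10 (-2.23 ± 0.071, adjusted p = 1.6e-28). The alpha gene farsa had 62.4 and 57.2 CPM at stage 13, against 83.0 and 75.4 CPM at stage 10, a change of -0.41 ± 0.084 (adjusted p = 2.9e-05). Per kb, the ratio of farsb to farsa was 3.12 and 2.99 in the WT libraries of stage 3 and 2.34 and 2.54 in those of stage 9. It was then 1.39 and 1.36 in the libraries of stage 10 and 0.367 and 0.415 in those of stage 13. The difference between the changes of the subunits was not tested.

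Over the 9 WT stages, 8 of the 20 cytosolic genes had their highest mean at stage 10 and 8 at stage 13, and 12 had their lowest at stage 3. The mitochondrial genes had no common peak: each of 8 stages was the highest for 1 to 3 of them, and 6 of the 17 were lowest at stage 13. The widest ranges between highest and lowest WT mean were 37.0-fold for cars1, 33.7-fold for pars2 and 25.3-fold for rars1. The narrowest were 1.45-fold for the mitochondrial seryl gene sars2, 1.76-fold for sars1 and 1.77-fold for the mitochondrial valyl gene vars2. These ranges describe the means and were not tested. At stage 13 kars1 was still first at 114 ± 5.74 CPM per kb, followed by tars1 at 82.0 ± 5.2, gars1 at 69.2 ± 2.62 and cars1 at 69.1 ± 0.620, and the last 2 of these do not differ beyond their spread.

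Summed over the class, cytosolic synthetase RNA stood at 387 ± 2.13 CPM per kb at WT stage 3, 407 ± 4.22 at stage 9, 655 ± 43.7 at stage 10 and 658 ± 13.6 at stage 13 (SD, n = 2 each). Mitochondrial synthetase RNA stood at 144 ± 5.62, 105 ± 1.13, 107 ± 6.13 and 85.9 ± 2.65 CPM per kb at the same stages. The mitochondrial share of the whole was 27.1 ± 0.664% at stage 3, 20.5 ± 0.344% at stage 9, 14.1 ± 0.116% at stage 10 and 11.5 ± 0.525% at stage 13. These are shares of genes classed by name, with kars1 and gars1 counted wholly as cytosolic and eprs1 in neither sum. Whether kars1 or gars1 also serves the mitochondrion in this frog was not tested.

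The sums also depend on the scaling and on the most abundant genes. On total counts alone the mitochondrial sum was 112 CPM per kb at stage 3, 121 at stage 9, 104 at stage 10 and 68.7 at stage 13. Its fall between stages 3 and 9 is thus not seen there. The cytosolic sum on total counts alone was 301 CPM per kb at stage 3, 468 at stage 9, 637 at stage 10 and 526 at stage 13. Its difference between stages 3 and 9 was larger there than with TMM factors, and it was lower at stage 13 than at stage 10. Without kars1 the cytosolic sum was 211 ± 0.272 CPM per kb at WT stage 3, 327 ± 5.74 at stage 9, 557 ± 33.6 at stage 10 and 544 ± 7.84 at stage 13. The mitochondrial sum without pars2 was 66.8 ± 2.59 CPM per kb at stage 3, 82.3 ± 1.66 at stage 9, 98.8 ± 4.54 at stage 10 and 83.7 ± 2.25 at stage 13. The cytosolic sum was thus higher at stage 13 than at stage 3 with and without kars1, while the mitochondrial sum was lower with pars2 and higher without it. The sum without pars2 still holds hars2, which stood at 4.08 CPM per kb at stage 3 and 30.7 at stage 13. The class of hars2 was read from its name alone, so the mitochondrial sums and shares, and the counts by class and by gene pair, depend on that label.

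**Figure D3:**
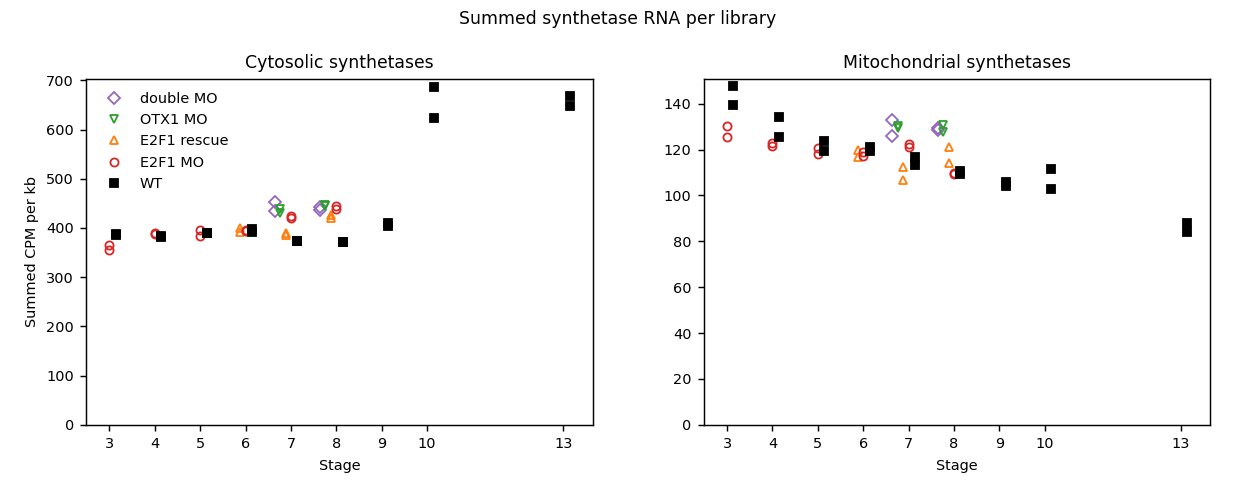
Summed level of the 20 cytosolic (left) and 17 mitochondrial (right) synthetase genes in CPM per kb (y axis, from 0) by stage (x axis), with 1 point for each library and points of injected groups drawn left of WT. At stages 7 and 8 the points of all injected groups lie above WT in the cytosolic panel, with rescue points the nearest to WT. WT stages 10 and 13 lie above all other groups there.

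For 15 amino acids the table holds both a cytosolic and a mitochondrial enzyme, which gives 17 gene pairs because phenylalanine and threonine have 2 cytosolic genes each. Between stages 9 and 3 both genes of a pair were higher in 7 pairs and both lower in 1 (single genes, all tested: 39.7% higher and 31.5% lower). Between stages 10 and 9 both were higher in 1 pair, and in 5 pairs the cytosolic gene was higher and the mitochondrial gene lower (all genes: 32.7% higher and 30.6% lower). The other 11 pairs had at most 1 gene called there. Whether the genes of a pair changed together beyond the counts of their classes was not tested. The structural classes of synthetases, class I with 18 members and class II with 19, had median log2 changes of 0.29 and 0.32 between stages 10 and 9.

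Injected embryos were compared with WT of the same stage. In E2F1 MO embryos few members changed at the cleavage stages. At stage 3, 3 were higher and 4 lower than in WT (all genes: 7.55% called, 3.26% higher and 4.3% lower), at stage 4, 5 and 1 (all genes: 3.13% called, 2.16% higher and 0.971% lower), at stage 5, 1 and 1 (all genes: 3.24% called, 1.67% higher and 1.57% lower), and at stage 6, 1 and 2 (all genes: 1.95% called, 1.18% higher and 0.772% lower). The 7 calls of stage 3 became 3 without E2F1 MO replicate 1, and 2 and 4 without WT replicates 1 and 2. The 6 calls of stage 4 became 3 without either E2F1 MO replicate, and 1 and 2 without WT replicates 1 and 2. These small splits moved under other settings too: at stage 3 total counts alone gave 3 higher and 2 lower, at stage 4 RLE factors gave 5 and 2, at stage 5 each of these scalings gave 1 and 2, and at stage 6 the DESeq2 model gave 1 and 1.

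The asparaginyl gene nars1 was called higher at all of these stages. It had 19.0 and 16.9 CPM in E2F1 MO embryos of stage 3, against 11.5 and 10.8 CPM in WT, a log2 change of 0.69 ± 0.10 (adjusted p = 1.1e-05). At stage 6 it had 34.5 and 31.9 CPM in E2F1 MO embryos, against 21.8 and 20.5 CPM in WT (0.65 ± 0.085, adjusted p = 7.6e-07). Injected and WT libraries did not overlap at either stage. The changes at stages 4 and 5, 0.45 and 0.43, were not kept in every leave-out.

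The glutaminyl gene qars1 was lower in E2F1 MO embryos. It had 41.2 and 46.1 CPM at stage 3, against 62.1 and 58.0 CPM in WT (-0.46 ± 0.073, adjusted p = 3e-05), and 34.6 and 35.0 CPM at stage 6, against 46.1 and 46.2 CPM in WT (-0.41 ± 0.074, adjusted p = 0.00038). The change at stage 5 was -0.40, and at stage 4, with 43.5 and 42.5 CPM against 50.6 and 49.5 CPM in WT, it was not called. Mitochondrial cysteinyl cars2 had 0.767 and 0.946 CPM in E2F1 MO embryos of stage 6, against 2.07 and 2.44 CPM in WT, a call that was lost when a library was left out.

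Many more members differed from stage 7 on, as did many more genes overall. At stage 7, 20 members were higher and 3 lower in E2F1 MO embryos than in WT, and of all genes 47.2% were called, 25.3% higher and 22% lower. At stage 8 the numbers were 19 and 4, and of all genes 49.8% were called, 26.2% higher and 23.7% lower. The higher genes were 14 cytosolic and 6 mitochondrial genes at stage 7, and 13 and 6 at stage 8. The median log2 change of the members was 0.25 at stage 7 and 0.21 at stage 8, beside 0 for all genes. At each stage 15 of the 23 calls were kept without each of the 4 libraries in turn.

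The second threonyl gene tars3 changed most at stage 7. It had 33.4 and 33.1 CPM in E2F1 MO embryos, against 12.2 and 12.9 CPM in WT (1.41 ± 0.11, adjusted p = 1.5e-14), and at stage 8 it had 32.8 and 33.2 CPM, against 16.9 and 16.5 CPM in WT (0.98 ± 0.11, adjusted p = 6.9e-10). These 4 injected libraries exceed all 18 WT libraries, whose highest value was 24.7 CPM at stage 10. At stage 6 tars3 had 15.6 and 13.7 CPM in E2F1 MO embryos, against 16.2 and 14.1 CPM in WT. The difference between the stage 7 and stage 6 effects was 1.45 ± 0.16 (adjusted p = 1.7e-09).

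The next in size at stage 7 in E2F1 MO embryos were mitochondrial genes. The valyl gene vars2 had 12.2 and 11.7 CPM, against 5.82 and 5.80 CPM in WT (1.04 ± 0.13, adjusted p = 1.2e-08). The threonyl gene tars2 (0.85), the seryl gene sars2 (0.61) and the phenylalanyl gene fars2 (0.55) rose as well. At stage 8 tars2 had 3.23 and 3.07 CPM in E2F1 MO embryos, against 2.7 and 3.27 CPM in WT, and was not called.

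At stage 8 the largest rises in E2F1 MO embryos were in nars2 and rars1, which were lower at stage 8 than at stage 7 in WT. Both comparisons use the WT libraries of stage 8. Counts of nars2 were low, at 7 to 86 in a library over all groups, so its changes are limited by depth. Mitochondrial nars2 had 2.7 and 1.89 CPM, against 0.674 and 0.484 CPM in WT (1.96 ± 0.41, adjusted p = 8.1e-05), and arginyl rars1 had 18.5 and 19.2 CPM, against 7.00 and 5.51 CPM in WT (1.59 ± 0.14, adjusted p = 2.8e-12). Mitochondrial rars2 (0.92), isoleucyl iars1 (0.87) and methionyl mars1 (0.81) rose too, and iars1 had 132 and 139 CPM, against 73.2 and 74.6 CPM in WT. The effects on nars2 and rars1 were larger at stage 8 than at stage 7 by 2.04 ± 0.51 (adjusted p = 0.0012) and 1.5 ± 0.20 (adjusted p = 4e-08). Lysyl kars1 (-0.27) and qars1 (-0.30) were lower at stage 8.

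Prolyl pars2, lysyl kars1 and glutaminyl qars1 were each called lower in 7 of the 13 comparisons of injected embryos with WT, and mitochondrial cars2 in 6. Of these, qars1 was called higher in 4 others, cars2 in 2, kars1 in 1 and pars2 in 0. Asparaginyl nars1 was called higher in 12 of the 13, threonyl tars1 in 9, and farsa and sars1 in 8. Mitochondrial mars2 was called in 0 of them, iars2 in 1, and hars and sars2 in 2. These comparisons share WT libraries, so the counts are not independent of each other.

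**Figure D4:**
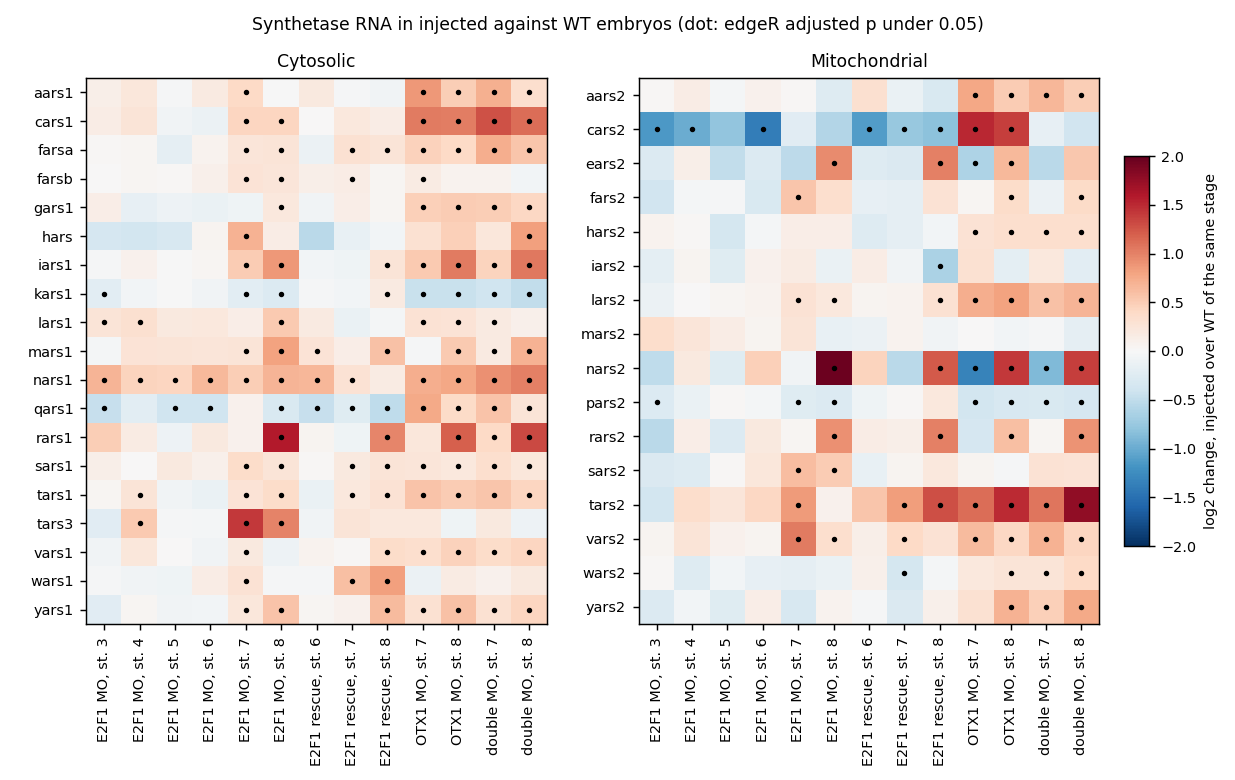
Log2 change of members (rows) in injected embryos over WT of the same stage (columns), in colour from -2 (blue) to 2 (red), with a dot where the edgeR adjusted p is under 0.05. Few dots lie in the columns of stages 3 to 6, and most dots of stages 7 and 8 lie on red cells.

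With E2F1 mRNA added, e2f1 RNA reached 23117 to 35358 CPM in rescue libraries, far above every other group. At stage 6, 2 members were higher and 2 lower in rescue embryos than in WT (all genes: 3.01% called, 1.54% higher and 1.48% lower), among them nars1 (0.66) and qars1 (-0.46). The rescue and E2F1 MO comparisons share the WT libraries. The 4 calls became 2 without WT replicate 2 or without rescue replicate 1, 1 higher and 2 lower with total counts alone, and 2 and 1 with DESeq2. Against E2F1 MO embryos of stage 6, 0 members were called by edgeR or DESeq2, 4 had an unadjusted p under 0.05 in edgeR, and of all genes 0.131% were called, 0.0436% higher and 0.0872% lower.

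At stage 7, 8 members were higher and 4 lower in rescue embryos than in WT (all genes: 33.3% called, 16.5% higher and 16.8% lower). The 12 calls became 6 and 7 without rescue replicates 1 and 2, and 6 without WT replicate 1, and total counts alone gave 6 higher and 5 lower. Against E2F1 MO embryos of the same stage, 3 were higher and 14 lower (all genes: 43.4% called, 20.1% higher and 23.3% lower). Those 17 calls became 10 and 11 without rescue replicates 1 and 2, and 11 without E2F1 MO replicate 1, and total counts alone gave 0 higher and 19 lower.

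Several members that were raised in E2F1 MO embryos stood near WT in rescue embryos. Threonyl tars3 had 14.1 and 15.8 CPM in rescue embryos of stage 7, against 33.4 and 33.1 CPM in E2F1 MO embryos (-1.15 ± 0.11, adjusted p = 8.3e-12). Isoleucyl iars1 had 98 and 98.6 CPM, against 147 and 149.8 CPM in E2F1 MO embryos (-0.59 ± 0.070, adjusted p = 2.8e-09). WT libraries of stage 7 had 12.2 and 12.9 CPM of tars3 and 105 and 104 CPM of iars1. The mitochondrial genes fars2 (-0.73) and vars2 (-0.64) were also lower in rescue than in E2F1 MO embryos. In rescue embryos fars2 had 5.87 and 5.96 CPM, against 6.70 and 6.70 CPM in WT. For vars2, rescue embryos had 7.79 and 7.59 CPM, against 5.82 and 5.80 CPM in WT, still higher (0.40 ± 0.14, adjusted p = 0.021) in a call that was lost when a library was left out.

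Other members differed between rescue and WT embryos. Mitochondrial tars2 had 5.87 and 6.40 CPM in rescue embryos of stage 7, against 3.37 and 3.50 CPM in WT (0.84 ± 0.17, adjusted p = 0.00013). This rise was not particular to rescue, as E2F1 MO embryos of stage 7 had 5.90 to 6.48 CPM of tars2. Tryptophanyl wars1 had 15.4 and 16.2 CPM in rescue embryos, against 10.3 and 10.6 CPM in WT (0.60 ± 0.11, adjusted p = 2.3e-05).

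At stage 8 rescue embryos had 15 members higher and 4 lower than WT (all genes: 52.2% called, 27.0% higher and 25.2% lower), and 5 higher and 11 lower than E2F1 MO embryos (all genes: 39.9% called, 20.1% higher and 19.8% lower). Mitochondrial tars2 had 7.52 and 7.07 CPM in rescue embryos, against 3.23 and 3.07 CPM in E2F1 MO embryos (1.21 ± 0.17, adjusted p = 3.3e-07) and 2.7 and 3.27 CPM in WT (1.3 ± 0.19, adjusted p = 2.2e-07). Tryptophanyl wars1 was at 17.1 and 16.4 CPM, against 9.5 and 9.02 CPM in E2F1 MO embryos (0.85 ± 0.11, adjusted p = 4.4e-08). Threonyl tars3 (-0.77), isoleucyl iars1 (-0.62), arginyl rars1 (-0.61) and leucyl lars1 (-0.55) were lower in rescue than in E2F1 MO embryos. In the rescue replicates of stage 8, which had the highest chi-square per gene, iars1 had 76.4 and 99.9 CPM and kars1 224 and 191 CPM. Without rescue replicate 1 or 2 in turn the 19 calls against WT became 17 and 18, and the 16 against E2F1 MO embryos became 11 and 15. Glutaminyl qars1 was lower in rescue embryos than in WT (-0.50).

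OTX1 MO and double MO embryos were set against the same WT libraries as E2F1 MO embryos. In OTX1 MO embryos 20 members were higher and 5 lower than in WT at stage 7, and of all genes 49.2% were called, 25.3% higher and 23.9% lower. At stage 8 the numbers were 26 and 4, and of all genes 54.6% were called, 28.1% higher and 26.4% lower. At stage 8, 14 of the 20 cytosolic and 12 of the 17 mitochondrial genes were higher. The median log2 change of the members was 0.30 at stage 7 and 0.45 at stage 8, beside 0 for all genes. At each stage 20 of the calls were kept without each library in turn.

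The mitochondrial cysteinyl gene cars2 had 4.16 and 4.65 CPM in OTX1 MO embryos of stage 7, against 1.81 and 1.28 CPM in WT (1.5 ± 0.23, adjusted p = 4.7e-07). At stage 8 it had 5.32 and 4.89 CPM, against 1.97 and 1.94 CPM in WT (1.38 ± 0.24, adjusted p = 3.8e-06). Its neighbour naxd, which overlaps it in RefSeq, had 83.9 and 84.8 CPM in OTX1 MO embryos of stage 8, against 56.2 and 54.4 CPM in WT. In double MO embryos of stage 8 naxd had 81.4 and 79.2 CPM, while cars2 had 1.46 and 1.55 CPM.

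Cytosolic cysteinyl cars1 and mitochondrial tars2 rose at both stages. Cysteinyl cars1 had 33.7 and 30.3 CPM in OTX1 MO embryos of stage 8, against 16 and 15.4 CPM in WT (1.03 ± 0.10, adjusted p = 1.3e-11), and tars2 had 7.80 and 8.87 CPM, against 2.7 and 3.27 CPM in WT (1.49 ± 0.18, adjusted p = 3.7e-09). Their changes at stage 7 were 1.04 and 1.12. The alanyl genes aars1 (0.87) and aars2 (0.78) and glutaminyl qars1 (0.76) rose at stage 7, and rars1 (1.2) and iars1 (1.04) rose at stage 8.

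Mitochondrial asparaginyl nars2 was lower in OTX1 MO embryos of stage 7, with 1.17 and 0.728 CPM, against 2.40 and 2.45 CPM in WT (-1.33 ± 0.33, adjusted p = 0.00082). At stage 8 it had 1.69 and 1.42 CPM in OTX1 MO embryos, against 0.674 and 0.484 CPM in WT, a call in the other direction that was lost when a library was left out. Lysyl kars1 was lower at both stages, with 134 and 134 CPM in OTX1 MO embryos of stage 8, against 181 and 187 CPM in WT (-0.45 ± 0.066, adjusted p = 1.6e-07). Its OTX1 MO libraries lay below the lowest of the 14 WT libraries of stages 3 to 9. The same held for double MO embryos of both stages and for E2F1 MO embryos of stage 8.

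Double MO embryos had 21 members higher and 4 lower than WT at stage 7 (all genes: 50.3% called, 25.6% higher and 24.7% lower), and 24 higher and 4 lower at stage 8 (all genes: 55.2% called, 28% higher and 27.2% lower). Cysteinyl cars1 had 35.3 and 32.6 CPM in double MO embryos of stage 8, against 16 and 15.4 CPM in WT (1.11 ± 0.10, adjusted p = 1.4e-12). Mitochondrial tars2 had 10.2 and 10.1 CPM, against 2.7 and 3.27 CPM in WT (1.77 ± 0.18, adjusted p = 3.4e-11), its highest mean in any group. Isoleucyl iars1 (1.05), nars1 (1.01) and rars1 (1.32) rose by a log2 change above 1, and kars1 (-0.49) and pars2 (-0.34) fell.

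Set against OTX1 MO embryos, double MO embryos differed in few members. At stage 7, 1 member was higher and 1 lower (all genes: 3.74% called, 1.64% higher and 2.1% lower), and at stage 8, 0 were higher and 1 lower (all genes: 2.68% called, 1.26% higher and 1.42% lower). Mitochondrial cars2 was the gene called lower at both stages. It had 1.29 and 1.48 CPM in double MO embryos of stage 7, against 4.16 and 4.65 CPM in OTX1 MO embryos (-1.66 ± 0.24, adjusted p = 8.2e-06), and 1.46 and 1.55 CPM at stage 8, against 5.32 and 4.89 CPM in OTX1 MO embryos (-1.76 ± 0.22, adjusted p = 6.2e-07). The 2 calls of stage 7 became 1, that of cars2, without OTX1 MO replicate 1 or 2 or double MO replicate 2, as the call of farsa was then lost. Total counts alone and DESeq2 gave 2 higher and 1 lower at stage 7, and 1 and 1 at stage 8.

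Set against E2F1 MO embryos, double MO embryos had 13 members higher and 8 lower at stage 7 (all genes: 44.6% called, 20.5% higher and 24.1% lower), and 14 and 5 at stage 8 (all genes: 43.2% called, 20.9% higher and 22.3% lower). Threonyl tars3 had 13.4 and 15.2 CPM in double MO embryos of stage 7, against 33.4 and 33.1 CPM in E2F1 MO embryos (-1.22 ± 0.11, adjusted p = 1.5e-12), and 15.7 and 15.5 CPM at stage 8, against 32.8 and 33.2 CPM in E2F1 MO embryos (-1.08 ± 0.11, adjusted p = 2.5e-11). Mitochondrial tars2 went the other way at stage 8 (1.69 ± 0.17, adjusted p = 2.7e-11). Cysteinyl cars1 (0.85 and 0.69) and qars1 (0.48 and 0.56) were higher in double MO embryos at both stages.

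The interaction asks whether the E2F1 morpholino changed a gene by the same log2 amount with and without the OTX1 morpholino. It was negative for 15 members and positive for 2 at stage 7 (all genes: 34.3% called, 18.3% negative and 15.9% positive), and negative for 15 and positive for 1 at stage 8 (all genes: 35.9% called, 19.4% negative and 16.6% positive). The largest at stage 7 were those of cars2 (-1.44 ± 0.35, adjusted p = 0.0011) and tars3 (-1.42 ± 0.16, adjusted p = 8.8e-10). For tars3, the E2F1 morpholino alone gave the rise described above, while OTX1 MO embryos had 12.9 and 16.1 CPM and double MO embryos 13.4 and 15.2 CPM at stage 7.

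**Figure D5:**
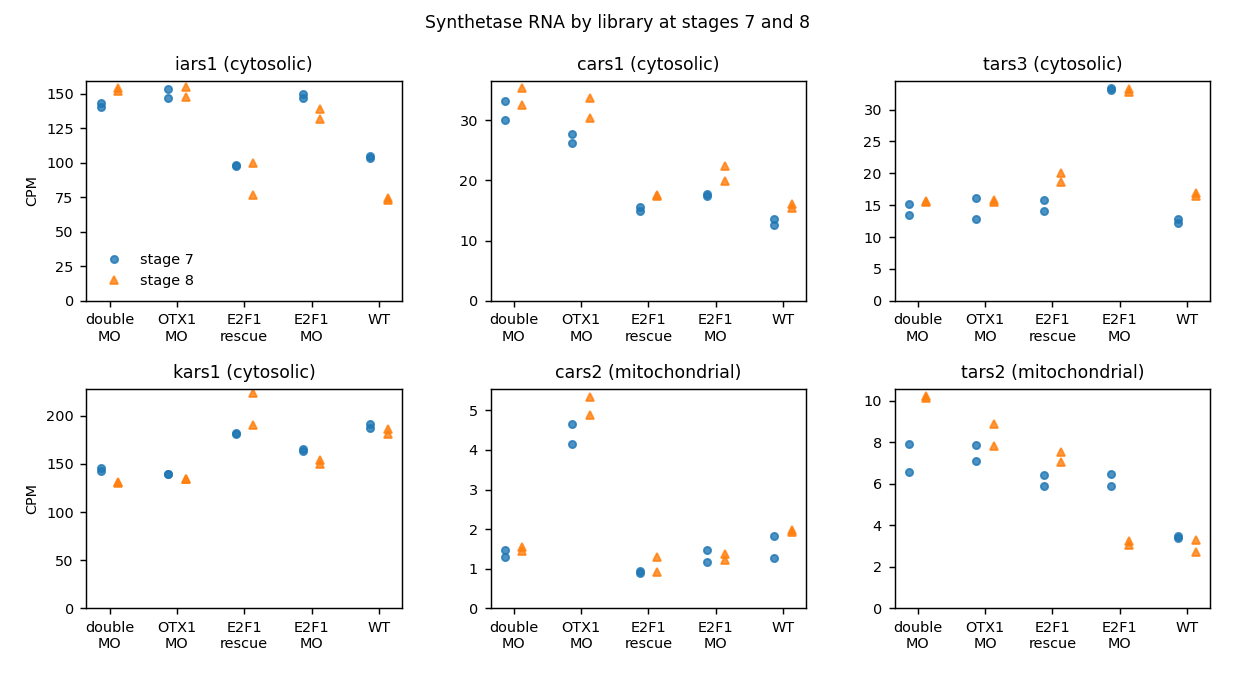
Level in CPM (y axis, from 0) of 6 members at stages 7 (circles) and 8 (triangles) in double MO, OTX1 MO, E2F1 rescue, E2F1 MO and WT embryos, with 1 point for each library. The tars3 points stand apart in E2F1 MO embryos and the cars2 points in OTX1 MO embryos. The kars1 points of double MO, OTX1 MO and E2F1 MO embryos lie below WT at both stages.

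Summed cytosolic synthetase RNA at stage 7 was 443 ± 13.0 CPM per kb in double MO, 434 ± 4.67 in OTX1 MO, 388 ± 2.55 in rescue and 422 ± 3.16 in E2F1 MO embryos, against 374 ± 0.118 in WT (SD, n = 2 each). At stage 8 it was 439 ± 4.52 in double MO, 445 ± 1.58 in OTX1 MO, 423 ± 4.45 in rescue and 441 ± 4.03 in E2F1 MO embryos, against 372 ± 0.345 in WT. Mitochondrial sums at stage 7 were 129 ± 4.79 in double MO, 129.8 ± 0.371 in OTX1 MO, 109.6 ± 4.01 in rescue and 122 ± 0.789 in E2F1 MO embryos, against 115 ± 2.61 in WT. At stage 8 they were 129 ± 0.443 in double MO, 129 ± 2.0 in OTX1 MO, 118 ± 4.73 in rescue and 109 ± 0.150 in E2F1 MO embryos, against 110.2 ± 0.877 in WT.

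Because the zygotic marker sum differed between groups of one stage, injected groups were also set against the whole range of the 14 WT libraries of stages 3 to 9. This comparison was chosen after the data were seen, and its range leaves out WT stages 10 and 13. Methionyl mars1 had a mean of 131 CPM at WT stage 10, against 71.7 and 76.2 CPM in E2F1 MO embryos of stage 8, while iars1 had its highest WT mean at stage 7. The part of embryo age in the counts that follow was not tested. Double MO embryos of stage 7 had both libraries above that range for 18 members and below it for 1 (all genes: 15.2% above and 10.3% below), and those of stage 8 for 21 and 1 (17.5% and 13.2%). In OTX1 MO embryos 15 members were above and 1 below at stage 7 (15.9% and 10.9% of all genes), and 19 and 1 at stage 8 (17.1% and 12.7%). Rescue embryos had 4 and 2 at stage 7 (7.0% and 4.02%), and 9 and 1 at stage 8 (8.24% and 4.81%). In E2F1 MO embryos 12 were above and 0 below at stage 7 (15.1% and 9.82%), and 10 and 2 at stage 8 (14% and 10.7%).

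Leucyl lars2 was such a gene. It had 78.7 and 73.1 CPM in double MO and 84.1 and 82.6 CPM in OTX1 MO embryos of stage 7, while WT libraries of stages 3 to 9 ran from 30.9 to 51.7 CPM. Isoleucyl iars1 was above its WT maximum of 105 CPM in double MO, OTX1 MO and E2F1 MO embryos at both stages, with 132 to 155 CPM. In WT libraries of stages 3 to 9 the seryl gene sars1 reached at most 101 CPM. All 4 kinds of injected embryo exceeded this at stages 7 and 8 by small amounts (104 to 117 CPM). At WT stage 10 sars1 had a higher mean, 142 CPM. The RNA per embryo was not measured, so a higher CPM can be more transcripts of a gene or fewer of others.

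Of the 7 members in the multisynthetase complex, 4 were higher and 2 lower at WT stage 9 than at stage 3 (all genes: 71.2% called, 39.7% higher and 31.5% lower), and 6 higher and 1 lower at stage 10 than at stage 9 (all genes: 63.2% called, 32.7% higher and 30.6% lower). Their partners were tested too: 4 of 5 listed names for scaffolds and the glutamyl-prolyl enzyme were tested, and the name eprs is not in the count table. The scaffold gene aimp1 had 23.9 and 24.2 CPM at WT stage 9, against 9.56 and 6.04 CPM at stage 3 (1.63 ± 0.15, adjusted p = 1.1e-12), and eef1e1 had 57.4 and 58.8 CPM, against 239.9 and 249 CPM (-2.07 ± 0.092, adjusted p = 3.6e-22). The glutamyl-prolyl gene eprs1 had 124 and 116 CPM at stage 10, against 82.0 and 82.0 CPM at stage 9 (0.55 ± 0.070, adjusted p = 3.3e-09), and in OTX1 MO embryos of stage 8 it had 138 and 149 CPM, against 96.9 and 100.5 CPM in WT (0.54 ± 0.067, adjusted p = 4.5e-09). Scaffold aimp1 had 6.01 and 6.65 CPM in E2F1 MO embryos of stage 7, against 18.6 and 19.5 CPM in WT (-1.59 ± 0.14, adjusted p = 1.3e-12).

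Genes that work beside the synthetases were counted in the same comparisons, from lists chosen with earlier results of these data known. Of 16 mitochondrial translation partners, all tested, 2 were higher and 8 lower at WT stage 10 than at stage 9 (median -0.36), and 9 higher and 2 lower at stage 9 than at stage 3 (median 0.70). Of all genes, 32.7% were higher and 30.6% lower at stage 10 than at stage 9 (median 0.04), and 39.7% and 31.5% at stage 9 than at stage 3 (median 0.22). The elongation factor tufm rose at stage 10 (0.90) and the initiation factor mtif2 fell (-0.95). Of 7 listed names of cytosolic elongation factor genes 6 were tested, as the name eef2 is not in the count table. Of the 6, 4 were higher and 1 lower at stage 10 (median 1.03), with eef1a1, which brings charged transfer RNA to the ribosome, up by 3.20.

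Of 21 genes of transfer RNA editing, maturation and export, 19 were tested, and 7 were higher and 5 lower at WT stage 10 than at stage 9 (median 0.15), shares near those of all genes (32.7% and 30.6%). Of 23 amino-acid response genes, whose factor ATF4 is known in mammals to activate several synthetase genes, 22 were tested, and 10 were higher and 7 lower at stage 10 (median 0.39, beside 0.04 for all genes). The gene atf4 itself had 104 and 87.6 CPM at stage 10, against 30.6 and 31.1 CPM at stage 9 (1.64 ± 0.13, adjusted p = 3.5e-15). In OTX1 MO embryos of stage 8, 7 genes of this list were higher and 4 lower (median -0.04), beside 28.1% higher and 26.4% lower of all genes. The gene atf4 had 3.13 and 3.18 CPM in these embryos, against 6.79 and 6.47 CPM in WT (-1.07 ± 0.18, adjusted p = 2.1e-06). Whether ATF4 acts on the synthetase genes in any of these groups was not tested, and its protein was not measured.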

How the data were processed

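Embryo mRNA was made into stranded libraries, according to the labels' protocols. Per the file headers, the authors deposited raw counts per gene with the gene length, and the submitters' processing notes name fastp, STAR 2.7.0e, featureCounts 2.0.1 and deepTools. No source used here gives the genome build, the annotation or whether counting used the strand. Raw counts from all 44 libraries entered 1 edgeR 4.0.16 quasi-likelihood model (R 4.3.3, limma 3.58.1) with a mean per group and TMM factors of 0.771 to 1.16. The filter filterByExpr with a count minimum of 10 kept 16064 of 28778 genes, which hold at least 99.9% of each library's counts. Genes were called at a Benjamini-Hochberg adjusted p under 0.05 over these genes, with 22 residual degrees of freedom. The 3-count floor covers counting error only. Alternatives were RLE factors, total counts alone, no filter, a fit on the compared groups, DESeq2 1.42.0, a replicate block and leaving out each library, where the dispersion trend of the full fit was reused.

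The members, comparisons and related lists were chosen with earlier results of these data known. The text names up to 6 called members in each direction by size in a comparison and up to 3 genes of a related list, and some members are counted here but not reported by name or drawn as single genes. Other members, and those followed across comparisons, were chosen after their values were seen, as were the range of WT libraries and the overlapping neighbours. All 37 members matched RefSeq symbols of UCB_Xtro_10.0, used for names and neighbours only. The planned motif search of promoters was not run.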

Additional observations from a re-analysis of the deposited data

Results flagged for a closer look

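The effects of the E2F1 morpholino differed between stages 7 and 6 for 12 of 37 members (32.4%, beside 29.5% of all genes called). Of these 12 effects, 11 moved up and 1 down (all genes: 15.1% up and 14.4% down). Between stages 8 and 7 they differed for 17 (45.9%, beside 39.0% of all genes), 10 up and 7 down (all genes: 19.7% up and 19.4% down). Calls are by edgeR's quasi-likelihood test of the difference between the stage effects. Values are differences of log2 changes. From stage 6 to stage 7 the effect moved up for tars3 (1.45), cars2 (1.16), vars2 (0.99), fars2 (0.85) and cars1 (0.54). In E2F1 MO embryos fars2 had 9.73 and 9.87 CPM at stage 7, against 6.70 and 6.70 CPM in WT. The values of cars2 and cars1 were lost as calls when a library was left out.

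From stage 7 to stage 8 the effect moved up for nars2 (2.04), rars1 (1.5), ears2 (1.48), rars2 (0.88) and mars1 (0.54). The nars2 value rests on low counts, 7 to 86 in a library over all groups. It moved down for tars2 (-0.76), vars2 (-0.70), tars3 (-0.42), aars1 (-0.41) and qars1 (-0.39), of which tars2 and tars3 lost their call in a leave-out. The mitochondrial glutamyl gene ears2 had 3.67 and 3.84 CPM in E2F1 MO embryos of stage 8, against 1.45 and 2.48 CPM in WT, and 2.68 and 2.7 CPM at stage 7, against 3.86 and 3.90 CPM in WT. The zygotic marker sum, given above, also differs between E2F1 MO and WT embryos at stage 7, and its part in these results was not tested.

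The interaction of the morpholinos differed from 0 for these members, named by size among those called. At stage 7 it was 0.25 for kars1, and negative for cars2 (-1.44), tars3 (-1.42), vars2 (-0.97), tars2 (-0.89) and fars2 (-0.70). At stage 8 it was 0.24 for kars1 and negative for nars2 (-1.98), rars1 (-1.47), cars2 (-1.17), ears2 (-1.05), tars3 (-0.99) and iars1 (-0.86). The nars2 value again uses its low counts in WT of stage 8. The calls of kars1 at both stages and of ears2 at stage 8 were lost when a library was left out. For iars1 at stage 8 all 3 injected groups were above WT, with 152 and 154 CPM in double MO, 155 and 148 CPM in OTX1 MO and 132 and 139 CPM in E2F1 MO embryos, against 73.2 and 74.6 CPM in WT. Groups of 2 libraries are too small to test for an outlying library.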

How the results depend on the processing

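No change among the 271 member and comparison pairs that the naming rule gave reversed under any alternative run. Of these pairs, 84 lost their call in at least 1 leave-out. Named changes outside that rule, among them those of partner genes, were not checked for reversal. Total counts alone, no filter, the compared groups alone, RLE factors and the replicate block lost 15, 22, 15, 6 and 5. DESeq2 kept 258 and lost 8. The remaining pairs had no DESeq2 adjusted p, so they were not called there and were left out of its check for reversal. Counts of called members moved as follows, and the cause was not tested. For WT stage 4 against 3 (6 members) total counts alone gave 10, no filter 3 and leave-outs 0 to 2. For WT stage 6 against 5 (7) they gave 13, 4 and 1 to 3, and the compared groups alone 11. Leave-outs gave 9 to 12 for WT stage 5 against 4 (17) and 7 to 11 for stage 9 against 8 (12). For E2F1 MO against WT at stage 3 (7) the replicate block gave 4, the compared groups alone 3 and leave-outs 2 to 6. The compared groups alone gave 10 and leave-outs 1 to 3 at stage 4 (6), and DESeq2 gave 4 at stage 5 (2). For rescue against WT the compared groups alone gave 2 at stage 6 (4) and 21 at stage 7 (12), with leave-outs of 2 to 3 and 6 to 8. For rescue against E2F1 MO they gave 26 at stage 7 (17), with leave-outs of 10 to 13, and 10 at stage 8 (16). For double MO against OTX1 MO at stage 7 (2), no filter, the replicate block and the compared groups alone gave 1 and leave-outs 1 to 3. At stage 8 (1), total counts alone and DESeq2 gave 2 and the compared groups alone 4. Without division by length the mitochondrial share was 23.0% at WT stage 3, 17.8% at stage 9 and 9.84% at stage 13. The log2 difference between replicates 1 and 2 of a group was correlated over genes with that of each other group. Over 231 pairs of groups these correlations were -0.07 to 0.16 (median 0.00026). Counting error enters these differences, so they cannot show whether same-numbered libraries share a source, which was not tested. Apart from the values given, the replicate block moved no count of called members by over 1.5 times. Genes near the 3-count floor, such as hars at stage 13, and other genes of low count, such as nars2, are limited by depth.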

Other observations

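The ratio of the phenylalanyl subunits was lower than in WT in double MO and OTX1 MO embryos. Per kb, the ratio of farsb to farsa was 1.64 and 1.55 in double MO embryos of stage 7, against 2.59 and 2.41 in WT, and 1.67 and 1.52 in double MO embryos of stage 8, against 2.50 and 2.34 in WT. In OTX1 MO embryos of stage 7 it was 1.97 and 2.1, and in those of stage 8 it was 2.03 and 1.83. Rescue embryos of stage 7 had ratios of 2.47 and 2.08, overlapping WT, and those of stage 8 had 2.21 and 1.99, below WT. In E2F1 MO embryos the replicates had ratios of 2.48 and 2.58 (stage 7) or 2.42 and 2.39 (stage 8), overlapping WT at both stages. The alpha gene farsa had 47.7 and 48.9 CPM in double MO embryos of stage 8, against 32.2 and 33.5 CPM in WT (0.55 ± 0.082, adjusted p = 2.2e-07), while the beta gene farsb had 115 and 108 CPM, against 117 and 114 CPM in WT. The difference between the subunits was not tested.

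In OTX1 MO embryos of stage 8 both the cytosolic and the mitochondrial gene were called higher in 9 of the 17 gene pairs for the same amino acid, and in double MO embryos in 8 (single genes, all tested: 28.1% and 28% higher). Taken singly, 14 of 20 cytosolic and 12 of 17 mitochondrial genes were higher in OTX1 MO embryos, and 14 and 10 in double MO embryos. Whether pairs rose together beyond these counts was not tested, and tars2 and fars2 each enter more than once. In OTX1 MO embryos of stage 8, 11 of 19 members of structural class II were higher and 4 lower, and 15 of 18 members of class I were higher and 0 lower (all genes: 28.1% and 26.4%).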
